A study of Mus musculus with 4 samples.

Results

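The transcription factors that keep a mouse hepatocyte a hepatocyte were followed through an acetaminophen overdose, with and without YAP. They are 9 genes: Hnf4a, the FOXA genes Foxa1, Foxa2 and Foxa3, the C/EBP genes Cebpa and Cebpb, the nuclear receptor genes Nr1i3 (CAR) and Nr1i2 (PXR), and Prox1. Each was found by its symbol among 30838 genes named on the array. Each had 1 probe set, so no choice between probe sets was needed, and 9 of 9 lay above the filter on dim genes that left 18503 genes for comparison. The probe set of a gene reads its transcripts together and does not separate alternative starts.

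RNA came from livers of male mice on 4 single-channel arrays, 1 for each group: YAP-KO 24 h after 300 mg/kg intraperitoneal acetaminophen given fasted, YAP-KO fasted at 0 h, wildtype 24 h after the same dose, and wildtype fasted at 0 h. The wildtype mice carried a floxed Yap1 gene. The labels do not give the Cre driver or the cells in which Yap1 was deleted in YAP-KO. Each array held RNA pooled from 3 mice, which hides the spread between animals. No group was left untreated for 24 h, so acetaminophen cannot be told apart from time or feeding.

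HNF4A is a nuclear receptor that binds DNA as a homodimer and stands near the top of the hepatocyte network, where it activates genes for apolipoproteins, clotting factors and bile acid enzymes. The FOXA proteins are pioneer factors that open liver enhancers, C/EBP alpha drives metabolic genes of the resting hepatocyte, and C/EBP beta is its paralog known for the acute phase and for liver regeneration. CAR and PXR pair with RXR alpha and switch on drug-metabolising enzymes; in mice CAR is known to raise the enzymes that turn acetaminophen into its reactive metabolite. PROX1 is a homeobox factor of hepatocytes and lymphatic endothelium that can act as a corepressor of HNF4A.

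The values are log2 intensities, so a difference of 1 is 2-fold, and 2-fold is the size at which a difference is counted here. Because every group is a single array, the spread between replicates is unknown and no p-value can be given: each difference describes pools of RNA. The 5 comparisons share arrays. Yap1, the deleted gene, read 6.01 in YAP-KO against 8.24 in wildtype at 24 h, and 6.31 in YAP-KO against 7.54 in wildtype at 0 h. The tissue carried its own markers: of 10 hepatocyte marker genes measured, 6 (among them Alb, Ttr and Apob) were at the upper limit of the scale on all 4 arrays, where no difference can be read. Fga was at the limit on some arrays. The other 3 markers were lower at 24 h in wildtype and not in YAP-KO: Asgr1, an asialoglycoprotein receptor gene, had 0.58 in YAP-KO and -0.62 in wildtype, the prothrombin gene F2 had 0.05 in YAP-KO and -0.53 in wildtype, and Cps1, a urea cycle gene close to the limit, had 0.04 in YAP-KO and -0.76 in wildtype. At 24 h Asgr1 was 1.02 higher in YAP-KO. The part of these marker differences in the values of the 9 genes was not tested. Over 9 macrophage and monocyte marker genes the mean level was 8.49 in YAP-KO at 24 h and 7.09 in YAP-KO at 0 h, against 9.10 in wildtype at 24 h and 7.17 in wildtype at 0 h. The genotype gap at 24 h was uneven. Of the 9, 2 lay above 0 and 7 below, where 46.8% of all genes tested lay above. At 2-fold or more, 2 were lower in YAP-KO and 0 higher, where 5.73% and 3.23% of all genes were. Cd14 differed most (-3.73, YAP-KO minus wildtype), Cd68 (-0.02) and Lyz2 (-0.01) were level, and Ly6c2 (0.97) and Ccr2 (0.46) were higher in YAP-KO. Less RNA of a hepatocyte gene can mean fewer hepatocytes in the tissue or less RNA in each, and these cannot be told apart.

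Hnf4a was lower at 24 h in both genotypes. It read 11.64 in YAP-KO at 24 h and 13.09 in YAP-KO at 0 h, against 11.39 in wildtype at 24 h and 12.29 in wildtype at 0 h. The difference between times was -1.45 in YAP-KO (2.73-fold lower) and -0.90 in wildtype (1.87-fold lower). In YAP-KO, only 0.773% of the genes tested had a lower difference. The level before the dose differed too: at 0 h Hnf4a was 0.80 higher in YAP-KO than in wildtype, and at 24 h it was 0.25 higher. With the 0 h arrays exchanged between genotypes, the difference was -0.65 in YAP-KO, inside 2-fold, and -1.70 in wildtype, so which genotype was lower by more turned round.

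Cebpa differed most between the times in wildtype liver among the 9 genes. It read 11.50 in YAP-KO at 24 h and 12.78 in YAP-KO at 0 h, against 10.51 in wildtype at 24 h and 12.94 in wildtype at 0 h. The difference was -1.28 in YAP-KO (2.43-fold lower) and -2.43 in wildtype (5.39-fold lower). The genotypes were close at 0 h (-0.16, YAP-KO minus wildtype) and stood 0.99 apart at 24 h, just short of 2-fold, with YAP-KO higher. Its paralog Cebpb differed little between arrays. It read 8.85 in YAP-KO at 24 h and 8.80 in YAP-KO at 0 h, against 8.83 in wildtype at 24 h and 8.48 in wildtype at 0 h, a range of 0.37 over the 4 arrays. Its difference between times was 0.05 in YAP-KO, which turned to -0.09 with array medians centred and -0.08 after quantile normalization, and 0.35 in wildtype. Myeloid cells also express Cebpb, and 5 of the 9 macrophage and monocyte markers were 2-fold or more higher at 24 h in each genotype. The share of all genes tested was 4.73% in YAP-KO and 12.7% in wildtype. The part of these cells in the Cebpb value was not tested.

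Nr1i3, encoding CAR, followed Cebpa closely. It read 10.69 in YAP-KO at 24 h and 11.53 in YAP-KO at 0 h, against 9.57 in wildtype at 24 h and 11.84 in wildtype at 0 h. The difference was -0.84 in YAP-KO (1.79-fold lower) and -2.27 in wildtype (4.82-fold lower). At 24 h it was 2.17-fold higher in YAP-KO than in wildtype (difference 1.12), after a difference of -0.31 at 0 h. Nr1i2, encoding PXR, read 8.65 in YAP-KO at 24 h and 8.82 in YAP-KO at 0 h, against 8.12 in wildtype at 24 h and 9.55 in wildtype at 0 h. Its response was -0.17 in YAP-KO and -1.43 in wildtype (2.69-fold lower). At 0 h Nr1i2 was lower in YAP-KO by more than Cebpa and Nr1i3 were, with a difference of -0.73, which was lower than that of 97.3% of genes tested. The smaller response of Nr1i2 in YAP-KO was therefore made of a lower value at 0 h and a higher one at 24 h. With the 0 h arrays exchanged between genotypes, the difference was -0.90 in YAP-KO and -0.70 in wildtype, inside 2-fold in both.

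The 3 FOXA genes did not share one pattern. Foxa1 read 8.12 in YAP-KO at 24 h and 8.93 in YAP-KO at 0 h, against 7.86 in wildtype at 24 h and 8.78 in wildtype at 0 h, so that the differences of -0.81 in YAP-KO and -0.92 in wildtype were similar in size. Foxa2 read 6.71 in YAP-KO at 24 h and 7.17 in YAP-KO at 0 h, against 6.14 in wildtype at 24 h and 6.60 in wildtype at 0 h. Its difference between times was -0.46 in each genotype and its difference between genotypes was 0.57 at each time. Foxa3 read 9.06 in YAP-KO at 24 h and 9.73 in YAP-KO at 0 h, against 8.88 in wildtype at 24 h and 8.50 in wildtype at 0 h. At 0 h it was 2.35-fold higher in YAP-KO (difference 1.23), and only 0.524% of genes tested had a higher difference. Its response was -0.67 in YAP-KO and 0.38 in wildtype, in opposite directions. That contrast rests on the 0 h arrays: with them exchanged between genotypes, the difference was 0.56 in YAP-KO and -0.85 in wildtype.

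Prox1 was higher in YAP-KO at both times. It read 11.73 in YAP-KO at 24 h and 12.16 in YAP-KO at 0 h, against 10.61 in wildtype at 24 h and 11.49 in wildtype at 0 h. The genotype difference was 1.12 at 24 h (2.17-fold) and 0.67 at 0 h (1.59-fold). Between times the difference was -0.43 in YAP-KO and -0.88 in wildtype, and with the 0 h arrays exchanged it was 0.24 in YAP-KO and -1.55 in wildtype. Of the lymphatic endothelial markers, Pdpn was flat between 4.78 and 4.81, whereas Lyve1, which sinusoidal endothelium also expresses, read 9.69 in YAP-KO at 24 h and 8.80 in YAP-KO at 0 h, against 13.57 in wildtype at 24 h and 8.06 in wildtype at 0 h. Over the 4 markers tested the mean level was 7.55 in YAP-KO at 24 h and 7.63 in YAP-KO at 0 h, against 8.83 in wildtype at 24 h and 7.32 in wildtype at 0 h. Flt4 was also highest in wildtype at 24 h, at 8.02, whereas Reln was highest in YAP-KO at 0 h, at 9.17. The part of these cells in the Prox1 values was not tested.

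**Figure D1:**
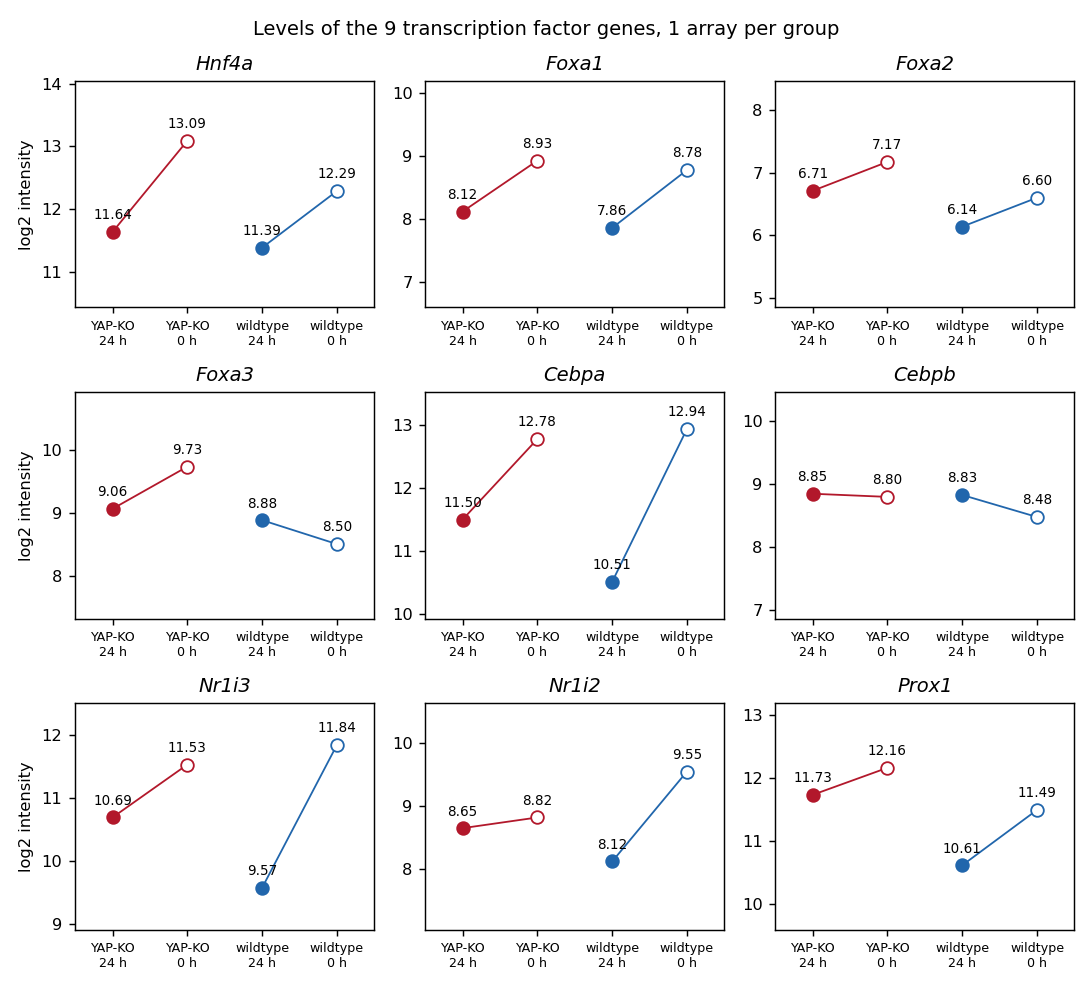
Deposited log2 intensity (vertical axis, equal span in every panel) of the 9 genes on the 4 arrays, 1 point per array; red points are YAP-KO, blue points wildtype, filled 24 h and open 0 h. Cebpa and Nr1i3 have their lowest points on the wildtype 24 h array, at 10.51 and 9.57, and Cebpb spans 0.37.

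The promoters of the genes on which these comparisons turn are shown to set the sequences beside the values: both annotated starts of Hnf4a, since the array does not separate them; Cebpa and Nr1i3, which had the lowest responses in wildtype; Cebpb, the paralog of Cebpa with the narrowest range; and Nr1i2. They are RefSeq sequences of GRCm38.p6, from 250 bases before an annotated start to 50 after it, in the direction of transcription. All 9 genes matched, with 13 annotated starts. The base at the start is counted as 1 and the base before it as -1. Capitals mark matches, on either strand, to the motifs named after the sequences.
Hnf4a upstream start, chr2:163506607-163506906, plus strand: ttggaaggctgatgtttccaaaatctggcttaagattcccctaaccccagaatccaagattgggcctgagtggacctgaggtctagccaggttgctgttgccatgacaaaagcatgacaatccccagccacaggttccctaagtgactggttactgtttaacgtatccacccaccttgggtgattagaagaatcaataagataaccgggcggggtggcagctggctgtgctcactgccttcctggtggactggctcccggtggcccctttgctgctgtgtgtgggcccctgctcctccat
Hnf4a downstream start, chr2:163546905-163547204, plus strand: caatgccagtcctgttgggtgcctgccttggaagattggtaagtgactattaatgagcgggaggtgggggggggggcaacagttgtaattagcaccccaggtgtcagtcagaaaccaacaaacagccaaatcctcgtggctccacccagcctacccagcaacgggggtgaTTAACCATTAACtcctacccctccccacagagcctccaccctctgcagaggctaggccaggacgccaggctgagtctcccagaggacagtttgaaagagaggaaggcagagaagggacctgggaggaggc
Cebpa, chr7:35119043-35119342, plus strand: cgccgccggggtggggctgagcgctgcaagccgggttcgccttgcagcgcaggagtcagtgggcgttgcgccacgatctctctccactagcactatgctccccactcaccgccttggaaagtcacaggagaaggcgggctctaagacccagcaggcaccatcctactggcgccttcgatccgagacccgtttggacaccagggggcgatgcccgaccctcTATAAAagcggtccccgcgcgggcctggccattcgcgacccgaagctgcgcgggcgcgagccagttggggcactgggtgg
Cebpb, chr2:167688665-167688964, plus strand: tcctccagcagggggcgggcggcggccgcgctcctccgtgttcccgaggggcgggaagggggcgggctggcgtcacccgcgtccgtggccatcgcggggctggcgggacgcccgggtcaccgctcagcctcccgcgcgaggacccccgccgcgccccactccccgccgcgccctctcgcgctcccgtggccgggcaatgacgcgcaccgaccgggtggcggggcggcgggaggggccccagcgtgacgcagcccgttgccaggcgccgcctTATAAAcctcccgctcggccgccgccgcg
Nr1i3, chr1:171213720-171214019, plus strand: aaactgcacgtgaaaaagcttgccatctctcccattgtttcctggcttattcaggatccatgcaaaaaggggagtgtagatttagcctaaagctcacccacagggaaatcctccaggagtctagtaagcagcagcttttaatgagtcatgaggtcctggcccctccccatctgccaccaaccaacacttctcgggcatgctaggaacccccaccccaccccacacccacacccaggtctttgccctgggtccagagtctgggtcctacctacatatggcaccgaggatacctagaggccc
Nr1i2, chr16:38294775-38295074, minus strand: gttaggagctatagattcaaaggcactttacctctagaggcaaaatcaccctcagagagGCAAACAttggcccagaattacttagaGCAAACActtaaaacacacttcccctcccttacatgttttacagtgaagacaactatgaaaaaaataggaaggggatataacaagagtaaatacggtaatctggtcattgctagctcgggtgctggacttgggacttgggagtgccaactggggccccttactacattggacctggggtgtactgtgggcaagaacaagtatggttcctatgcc

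The letters searched were TTNNGCAA for C/EBP, CAAAGTCCA for HNF4, and TGTTTAC and TGTTTGC for FOXA. Also searched were GGAATG for the TEAD partners of YAP and TATAAA for a TATA box. For HNF1, a loosened form of the consensus was searched, in which the middle bases could be any base. None of these motifs overlapped another in the 6 windows printed. The downstream Hnf4a start, which is the one known to serve adult hepatocytes, held an HNF1 match on the opposite strand, TTAACCATTAAC, from position -80. That loosened motif, chosen with this sequence in view, occurred in 0.14% of the 32851 promoters of the table. The share with the full HNF1 consensus was not counted. The upstream Hnf4a window and that of Nr1i3 held no match. Cebpa had a TATA box from position -30 and Cebpb one at position 22, after its annotated start. Foxa2, Foxa3 and Prox1, whose windows are not printed, held the TATA letters too. Of all promoters, 13.6% held this motif. Nr1i2 had a pair of TGTTTGC matches on the opposite strand, from positions -191 and -164, where 5.07% of promoters held at least 1. Among the 9 genes, TGTTTGC was also found at Prox1. TGTTTAC was found in 3.65% of promoters and, among the 9 genes, only at Foxa1. C/EBP letters (10.8% of promoters), HNF4 letters (0.475%) and TEAD letters (14.7%) were in none of the 13 windows. The bases differed in composition too, with 80.7% G or C at Cebpb and 67.3% at Cebpa, against 45.3% at Nr1i2 and 54% at Nr1i3, and a median of 52.7% over all promoters. A match is a string of letters, not a shown binding site.

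Across the 9 genes, lower values at 24 h prevailed in both genotypes. In YAP-KO, 2 were 2-fold or more lower (Hnf4a and Cebpa) and 0 higher, where 2.22% of all genes tested were lower and 4.73% higher. In wildtype, 3 were 2-fold or more lower (Cebpa, Nr1i3 and Nr1i2) and 0 higher, where 5.87% of all genes were lower and 12.7% higher. With the 0 h arrays exchanged between genotypes, 2 were lower in YAP-KO (Cebpa and Nr1i3) and 6 in wildtype, where Hnf4a, Foxa1, Foxa2 and Prox1 passed and Nr1i2 no longer did. Below 0 lay 8 of 9 in YAP-KO and 7 of 9 in wildtype, against 40.3% and 44.6% of all genes tested. After the exchange of the 0 h arrays, Foxa2 (0.11), Foxa3 (0.56) and Prox1 (0.24) turned above 0 in YAP-KO, beside Cebpb (0.37). In wildtype Foxa3 turned below 0 (-0.85). At 1.5-fold, 5 of 9 were lower in YAP-KO and 6 in wildtype, where 6.02% and 12% of all genes were. The median over the 9 was -0.67 in YAP-KO and -0.90 in wildtype, against a median of 0.07 over all genes tested in either genotype. Each array was also centred on its median over the genes tested. With medians centred in this way, 2 genes were 2-fold lower in YAP-KO and 6 in wildtype, where Hnf4a (-1.15), Foxa1 (-1.17) and Prox1 (-1.13) passed as well. Of all genes past 2-fold in wildtype, 68.3% were higher as deposited, 49.1% with medians centred and 57.7% after quantile normalization; in YAP-KO these shares were 68.1%, 50.9% and 58.9%.

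**Figure D2:**
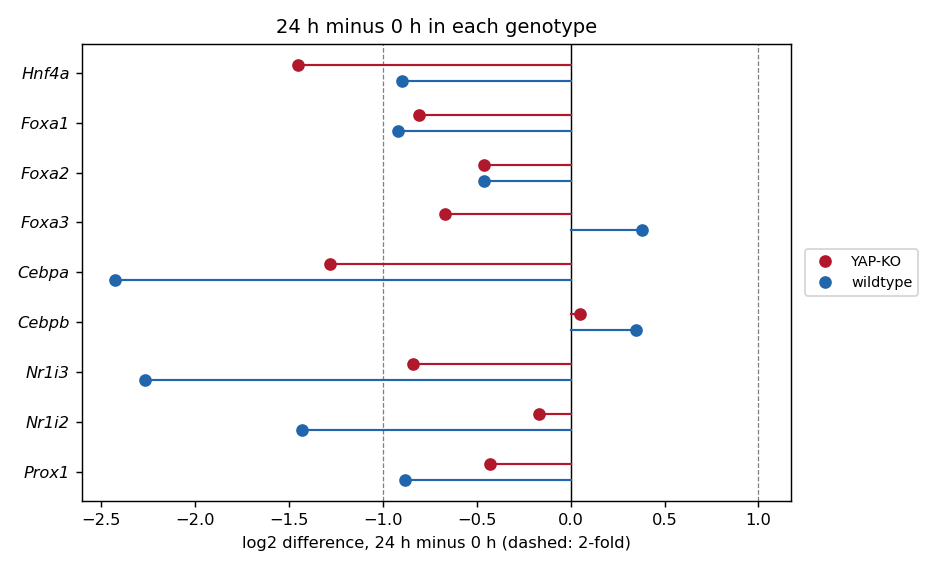
Log2 difference, 24 h minus 0 h (horizontal axis), of each gene in YAP-KO (red, upper) and wildtype (blue, lower); each point is a difference between 2 arrays and dashed lines mark 2-fold. Hnf4a is lower by more in YAP-KO (-1.45 against -0.90), while Cebpa, Nr1i3 and Nr1i2 are lower by more in wildtype; with the 0 h arrays exchanged the order turns round for Hnf4a (-0.65 against -1.70) and Nr1i2 (-0.90 against -0.70).

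Between the genotypes at 24 h, all 9 differences were above 0, from 0.02 for Cebpb to 1.12 for Nr1i3 and Prox1, with a median of 0.53. Over all genes tested 46.8% were above 0 and the median was -0.02. The 9 directions were kept with medians centred and after quantile normalization. At 2-fold or more, 2 of 9 were higher in YAP-KO and 0 lower, against 3.23% and 5.73% of all genes; of those past 2-fold, 36.1% were higher in YAP-KO as deposited, 47.4% with medians centred and 48.6% after quantile normalization. At 0 h, 6 of 9 were above 0 and 3 (Cebpa, Nr1i3 and Nr1i2) below, with a median of 0.32; 44.5% of all genes tested were above 0. Only Foxa3 passed 2-fold there, and it was higher; 1.02% of all genes were 2-fold higher and 0.876% lower. At 1.5-fold, 3 were higher (Hnf4a, Foxa3 and Prox1) and 1 lower (Nr1i2), where 3.45% and 4.87% of all genes were.

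**Figure D3:**
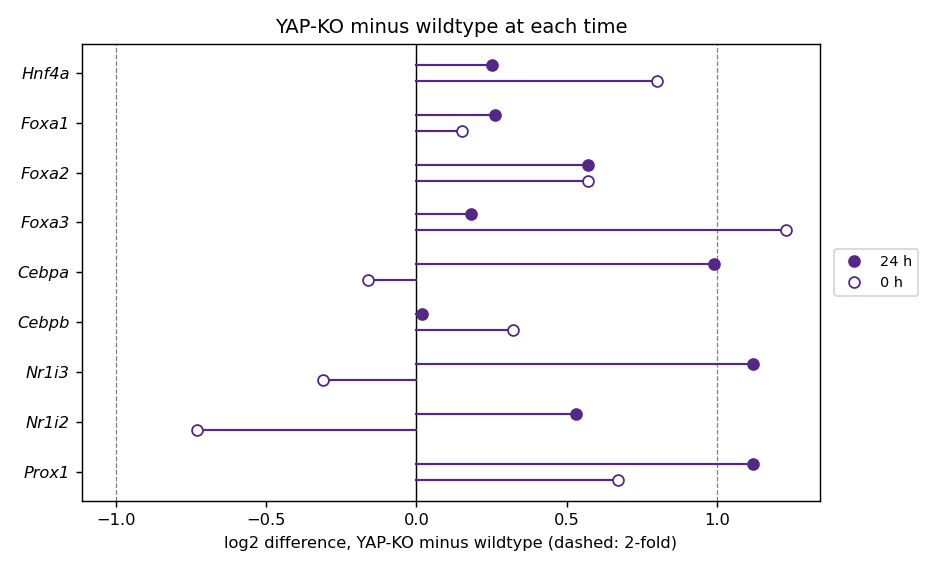
Log2 difference, YAP-KO minus wildtype (horizontal axis), of each gene at 24 h (filled, upper) and 0 h (open, lower); each point is a difference between 2 arrays and dashed lines mark 2-fold. All 9 filled points lie right of 0, and the open points of Cebpa, Nr1i3 and Nr1i2 lie left of it.

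The difference of the responses, YAP-KO minus wildtype, split the genes. It was 1.43 for Nr1i3, 1.26 for Nr1i2 and 1.15 for Cebpa, so that 3 of 9 were 2-fold or more higher, where 5.66% of all genes were. It was -1.05 for Foxa3, the 1 gene 2-fold or more lower, where 7.49% of all genes were; Foxa3 lay at -0.94 with medians centred and -0.91 after quantile normalization, inside 2-fold. It was 0.00 for Foxa2, 0.11 for Foxa1, -0.30 for Cebpb, 0.45 for Prox1 and -0.55 for Hnf4a. Of all genes past 2-fold in this difference, 43% were higher as deposited, 54% with medians centred and 50.6% after quantile normalization.

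Profiles over the 4 arrays were compared after centring each gene on its own mean, by Euclidean distance in log2 units, a description over 4 arrays. Among the 9 genes, Cebpa and Nr1i3 were the nearest pair, at 0.33. The nearest genes of the whole array were Ces3b (0.17), Dpyd (0.17) and Abca6 (0.20) for Cebpa, and Glo1 (0.05), Pm20d1 (0.06) and Cyp2j5 (0.11) for Nr1i3. For Nr1i2 they were Hlf (0.07), Adi1 (0.12) and Anp32-ps (0.12). Hnf4a lay nearest to Ypel2 (0.16), Dnaja1-ps (0.26) and Ptch1 (0.27), Foxa3 to Tirap (0.06), Amot (0.25) and Wdr45b (0.27), and Prox1 to Tmem19 (0.20), AI463229 (0.23) and Pex11g (0.24).

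Other liver-enriched transcription factors were described in the same way. Of 17 tested, 0 were 2-fold higher and 1 lower at 24 h in YAP-KO, and 2 were higher and 7 lower in wildtype. Their median was -0.11 in YAP-KO and -0.20 in wildtype. Of all genes tested, 4.73% were 2-fold higher and 2.22% lower in YAP-KO, and 12.7% higher and 5.87% lower in wildtype. The 2 higher genes in wildtype are thus near the share of all genes. Onecut1, a cut-homeobox factor of hepatocytes, was lowest in wildtype: its response was -0.64 in YAP-KO and -2.98 in wildtype. Nr1h4, the bile acid receptor FXR, had -0.75 in YAP-KO and -2.42 in wildtype. Klf15 and Ppara, factors of the fasting metabolism, had -0.32 and -0.33 in YAP-KO, in that order, and -1.86 each in wildtype. At 0 h Klf15 differed little between genotypes (-0.13, YAP-KO minus wildtype), whereas Ppara was already lower in YAP-KO (-0.70). Tbx3 was the 1 gene past 2-fold lower in YAP-KO, at -1.09, with -1.54 in wildtype. Gata6 went the other way in wildtype (0.14 in YAP-KO and 1.90 in wildtype), as did Cebpd, another C/EBP paralog of the acute phase (-0.13 in YAP-KO and 1.67 in wildtype). Between the genotypes at 24 h, 4 of the 17 were 2-fold higher in YAP-KO (Onecut1 2.32, Nr5a2 1.52, Nr1h4 1.45 and Klf15 1.41) and Gata6 was lower (-1.51). Among all genes tested, 3.23% were higher and 5.73% lower there.

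**Figure D4:**
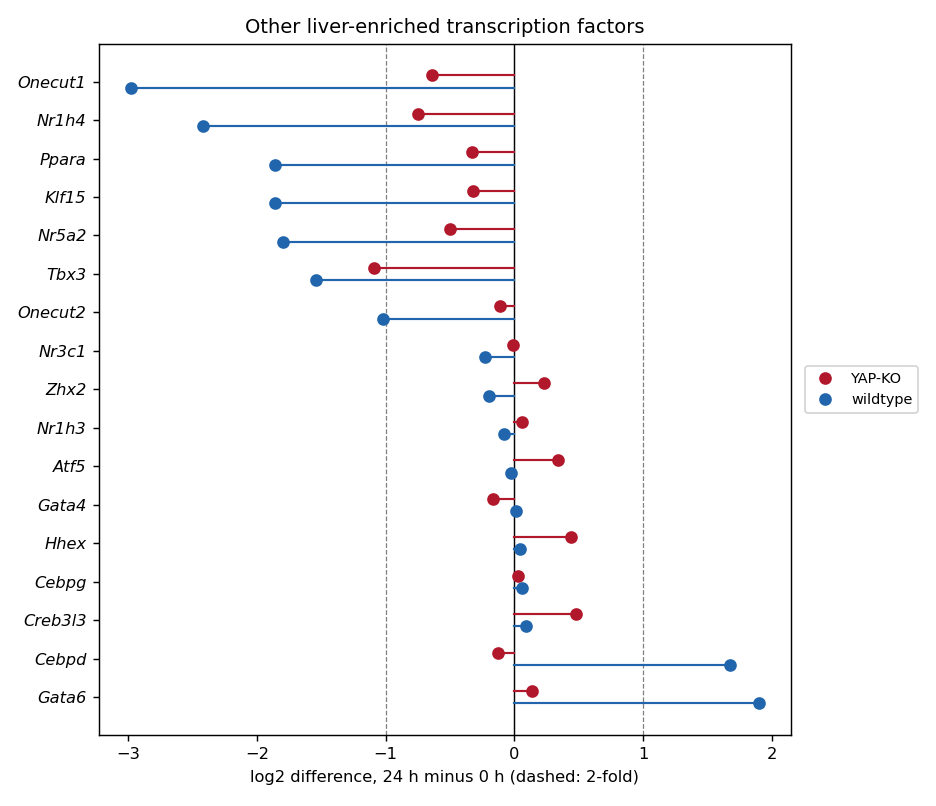
Log2 difference, 24 h minus 0 h (horizontal axis), of 17 other liver-enriched transcription factor genes in YAP-KO (red, upper) and wildtype (blue, lower), sorted by the wildtype value; each point is a difference between 2 arrays and dashed lines mark 2-fold. Onecut1 and Nr1h4 are lowest in wildtype, at -2.98 and -2.42, with -0.64 and -0.75 in YAP-KO.

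Among 14 partners and cofactors, Rxra, the dimer partner of CAR and PXR, had a response of -0.46 in YAP-KO and -0.52 in wildtype. Nr0b2 (SHP), a receptor without a DNA-binding domain that represses HNF4A and other nuclear receptors, read 8.83 in YAP-KO at 24 h and 8.54 in YAP-KO at 0 h, against 6.22 in wildtype at 24 h and 8.32 in wildtype at 0 h. It was thus low on the wildtype 24 h array alone, and 2.61 higher in YAP-KO at 24 h. Ddit3 (CHOP), a C/EBP family member that dimerises with the other C/EBP proteins, had the largest response of the list in YAP-KO, 2.95, with 1.40 in wildtype. Kdm1a, a histone demethylase of corepressor complexes, was 0.18 higher in YAP-KO and 1.18 higher in wildtype. In all, 1 of 14 was 2-fold higher and 0 lower in YAP-KO, and 2 were higher and 1 lower in wildtype. The shares of all genes tested were 4.73% higher and 2.22% lower in YAP-KO, and 12.7% and 5.87% in wildtype.

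Genes known as targets of these factors were set beside them, as counts of genes past 2-fold at 24 h against 0 h. The counts of all 5 target lists stand beside the same shares of all genes tested. These were 4.73% higher and 2.22% lower in YAP-KO, and 12.7% higher and 5.87% lower in wildtype. Of 17 HNF4A targets, 2 were 2-fold higher and 4 lower in YAP-KO, and 2 higher and 8 lower in wildtype. Of these, 4 genes (apolipoproteins and transthyretin) were at the upper limit on all arrays; without them the median was -0.52 in YAP-KO and -1.47 in wildtype. Lowest in wildtype were the bile acid hydroxylase gene Cyp8b1 (-2.52 in YAP-KO and -4.18 in wildtype) and the anion transporter gene Slco1a1 (-1.25 in YAP-KO and -3.87 in wildtype). Apoa4 went against the list, at 1.36 in YAP-KO and 5.59 in wildtype, as did Mttp, the lipid transfer protein gene, in wildtype (-0.60 in YAP-KO and 1.41 in wildtype) and the clotting factor gene F11 in YAP-KO (1.23 in YAP-KO and -0.72 in wildtype). Of 10 FOXA targets, 0 were higher and 3 lower in YAP-KO, and 1 was higher and 5 lower in wildtype. Without the 2 genes saturated on all arrays the median was -0.40 in YAP-KO and -2.27 in wildtype. Tat, at the limit on some arrays, both YAP-KO arrays among them, stayed in that median. Serpina6, encoding the corticosteroid carrier of plasma, had -2.13 in YAP-KO and -5.39 in wildtype, and Igfbp1 went the other way in wildtype (-0.27 in YAP-KO and 4.22 in wildtype). The genotypes already differed at 0 h for Igfbp1 (2.61, YAP-KO minus wildtype) and for Apoa4 (1.62). The responses of these genes thus start from unlike 0 h values.

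Of 9 C/EBP alpha targets, 0 were higher and 2 lower in YAP-KO, and 0 were higher and 3 lower in wildtype. G6pc, the glucose-6-phosphatase gene, had -1.93 in YAP-KO and -6.60 in wildtype. Gys2, the liver glycogen synthase gene, had -1.52 in YAP-KO and -2.42 in wildtype, and Pck1, a gluconeogenic enzyme gene, had 0.05 in YAP-KO and -2.43 in wildtype. The 0 h differences, YAP-KO minus wildtype, were -1.16 for G6pc, -0.73 for Gys2 and -0.71 for Pck1. No median is given for this list, because Alb was at the upper limit on all arrays, Tat and Cyp2e1 on some, and Cps1 close to it. G6pc and Pck1 are in the FOXA list as well, and Gys2 in the HNF4A list.

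The CAR targets had the same count of lower genes in both genotypes, though single genes differed in their responses. Of 12, 0 were 2-fold higher and 7 lower in YAP-KO, and 1 was higher and 7 lower in wildtype, and the median was -1.19 in YAP-KO and -1.21 in wildtype. Nr1i3 itself had -0.84 in YAP-KO and -2.27 in wildtype. Cyp2b9 had -3.15 in YAP-KO and -1.21 in wildtype. In the same order, Cyp2b10 had -1.57 and -2.73, Cyp2c37 had -1.60 and -4.73, and Thrsp had -2.28 and -4.73. At 24 h Cyp2b9 read 4.95 in YAP-KO, and Cyp2b10 read 5.39 in YAP-KO and 5.04 in wildtype, not far above the filter level of 4.322. The array may not separate near-identical Cyp2b or Cyp2c copies. Gadd45b, a stress gene, went the other way in wildtype (-0.11 in YAP-KO and 1.60 in wildtype). Between the genotypes at 24 h the list was even, with 3 higher and 3 lower in YAP-KO, where 3.23% and 5.73% of all genes were. In the difference of the responses, 5 of the 12 were 2-fold or more higher and 3 lower, where 5.66% and 7.49% of all genes were. Of 11 PXR targets, 0 were higher and 5 lower in YAP-KO, and 1 was higher and 4 lower in wildtype, and the median was -0.31 in YAP-KO and -0.73 in wildtype. Cyp2c55, also in the CAR list, was lowest (-2.29 in YAP-KO and -4.19 in wildtype), followed by the carboxylesterase gene Ces2a (-1.67 and -1.89), and the efflux pump gene Abcb1a was higher in wildtype (0.19 in YAP-KO and 2.06 in wildtype). The lists share genes and arrays.

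**Figure D5:**
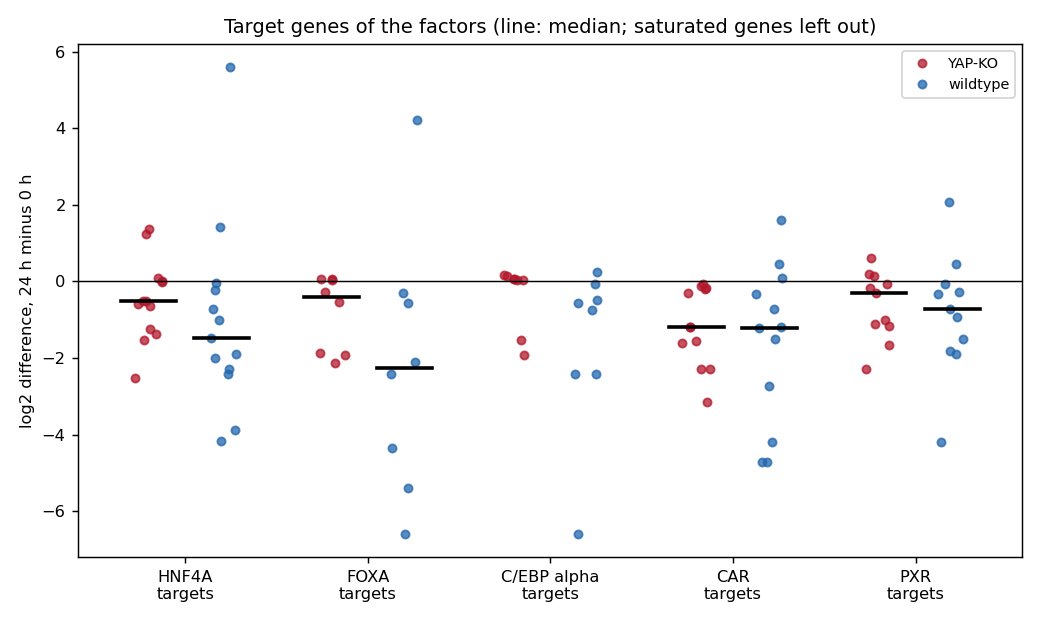
Log2 difference, 24 h minus 0 h (vertical axis), of target genes in YAP-KO (red, left) and wildtype (blue, right); each point is 1 gene, black lines are medians (none for the C/EBP alpha targets, where several genes lie at or near the upper limit), and genes saturated on all arrays are left out. The medians of the CAR targets are close (-1.19 in YAP-KO and -1.21 in wildtype), whereas those of the FOXA targets are -0.40 and -2.27. The FOXA medians include Tat, which lay at the upper limit on some arrays.

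Markers of other cells moved with time. For comparison, 4.73% of all genes tested were 2-fold higher at 24 h in YAP-KO and 12.7% in wildtype, where 5.87% were lower. Of 7 neutrophil markers tested, 3 were 2-fold higher at 24 h in YAP-KO and 4 in wildtype, and the list mean was 6.31 in YAP-KO at 24 h and 5.56 in YAP-KO at 0 h, against 7.40 in wildtype at 24 h and 5.44 in wildtype at 0 h. The list was not uniform: Ly6g (0.09 in YAP-KO and -0.63 in wildtype) and Camp (-0.15 and -0.65) were lower in wildtype. Of 8 stellate cell markers, 2 were higher in each genotype, and Lrat was 2-fold lower in wildtype. Of 5 cholangiocyte markers, only Sox9 was 2-fold higher (1.47 in YAP-KO and 2.53 in wildtype), while Krt19 and Krt7 lay between 4.30 and 4.56, next to the filter level of 4.322. The part of these cells in the values of the 9 genes was not tested.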

How the data were processed

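Per the labels, Trizol was used on 100 mg of tissue, and the GeneChip WT Plus kit labelled the RNA with biotin. The deposited values are log2 intensities that the authors had already summarised to 1 value per probe set and array; the log2 scale was inferred from the values (2.24 to 19.93, with 2 decimals). Their summarisation, background correction and normalization are not given in the sources used here. Array medians over all probe sets ran from 4.32 to 4.47. Where medians were centred, the median of each array over the 18503 genes tested was used instead. Arrays carry no read depth: their number, 1 per group, limits the precision. Values within 0.01 of an array's highest were called saturated.

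Of 65956 probe sets, 31402 were annotated to 1 gene, 1348 to several (not used) and 33206 to none. Symbols were updated by Entrez identifier to the mouse RefSeq annotation of GRCm38.p6. The brightest probe set per gene was kept, and genes whose mean reached the 40th percentile of named genes (4.322) were compared. Differences were plain subtractions in Python 3.11.15 with pandas 2.3.3, checked on simulated data. An alternative value of a single gene was counted as moved if it shifted by 1.5-fold or more (0.585 log2 units).

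The members and all lists (other liver-enriched factors, partners and cofactors, 5 target lists, fetal and progenitor genes, mesenchymal transition factors and markers of 6 cell types) were chosen with earlier results of these data known. Named genes were the 9 members, up to 4 list genes with large differences, list genes 2-fold against their list's median, and the 3 nearest profiles of members past 2-fold, predicted genes aside. Rxra, Pdpn, Krt19, Krt7 and the mesenchymal transition factors were named for their role after their values were seen. The HNF1 motif was chosen with the Hnf4a promoter in view.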

Additional observations from a re-analysis of the deposited data

Results flagged for a closer look

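Foxa3 responded in opposite directions in the genotypes, at -0.67 in YAP-KO and 0.38 in wildtype. For 3 genes the genotype difference, YAP-KO minus wildtype, had opposite signs at the times: Cebpa (0.99 at 24 h and -0.16 at 0 h), Nr1i3 (1.12 at 24 h and -0.31 at 0 h) and Nr1i2 (0.53 at 24 h and -0.73 at 0 h). These differences between genotypes and times were not tested, as each rests on 1 array per group.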

How the results depend on the processing

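Counts of the 9 genes past 2-fold and their medians kept their value within 1.5-fold (counts) or 0.585 log2 units (medians) in 24 of the 29 comparisons with an alternative that could change them. The count at 24 h against 0 h in wildtype, 3 as reported, was 6 with array medians centred, 6 at a 1.5-fold threshold and 6 against the 0 h array of the other genotype. At 1.5-fold the count was 5 in YAP-KO at 24 h against 0 h, where 2 passed 2-fold, and 4 between genotypes at 0 h, where 1 did. Centring moved the median of all genes in wildtype to -0.18, against 0.07 as deposited, and moved that of the response difference to 0.10. Centring shifts all genes of a comparison alike, by less than 1.5-fold. Under it no single gene or median could count as moved, so the totals overstate how firm the values are. Of 108 single-gene comparisons with centring, quantile normalization or exchanged 0 h arrays, 8 moved by 1.5-fold or more. These 8 all used the other genotype's 0 h array. They concerned Hnf4a (-0.65 in YAP-KO and -1.70 in wildtype), Foxa3 (0.56 and -0.85), Nr1i2 (-0.90 and -0.70) and Prox1 (0.24 and -1.55). With that array Foxa2 in YAP-KO turned to 0.11. Filters on dim genes and averaging of probe sets could not change the 9 genes, which each have 1 probe set and passed every filter tried, and are not counted. No paired analysis was possible because each group has 1 array, all numbered replicate 1, so the groups share fewer than 2 numbers; leaving out a replicate was not possible either. Without detection calls, the floor of the scale is unknown.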

Other observations

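Fetal and progenitor genes were mostly dim. Of the 5 above the filter, 1 was 2-fold higher at 24 h in YAP-KO and 3 in wildtype, with 0 lower in either genotype. The share of all genes tested that was 2-fold higher was 4.73% in YAP-KO and 12.7% in wildtype. Sox9, a progenitor and cholangiocyte factor known as a YAP target, read 8.20 in YAP-KO at 24 h and 6.73 in YAP-KO at 0 h, against 9.05 in wildtype at 24 h and 6.52 in wildtype at 0 h. Cd24a, a surface protein gene of progenitor cells, read 8.02 in YAP-KO at 24 h and 7.16 in YAP-KO at 0 h, against 9.38 in wildtype at 24 h and 6.75 in wildtype at 0 h. Afp, the alpha-fetoprotein gene, was 1.09 higher at 24 h in wildtype and 0.24 higher in YAP-KO, at levels of 4.16 to 5.45. Igf2, Dlk1 and Gpc3 were below the filter.

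Of the transcription factors of epithelial-mesenchymal transition, which can oppose HNF4A, 3 were above the filter and 0 differed by 2-fold between times in either genotype. Of all genes tested, 4.73% were 2-fold higher and 2.22% lower in YAP-KO, and 12.7% and 5.87% in wildtype. Among 3 genes, a count of 0 is near these shares. Twist1 and Twist2 were below the filter, and Zeb2 had no probe set annotated to it alone. Snai1 had -0.05 in YAP-KO and -0.77 in wildtype, Snai2 had 0.03 and 0.32, and Zeb1 had 0.07 and 0.33, each in the same order. Snai1 was dim, at 3.99 in wildtype at 24 h and 4.76 in wildtype at 0 h, around the filter level of 4.322.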
